A study of Mus musculus with 7 samples.

Results

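The 44 genes described here are interferon-stimulated genes, taken by name from the 52740 genes in the count table. No measured value served as a rule, but the list was chosen with earlier results of these data known. All 44 were present in the table, all 44 were among the 16990 genes with enough counts to be tested, and the lowest count of any of them in any library was 11. Messenger RNA was sequenced from retinal pigment epithelium (RPE), the pigmented cell layer behind the photoreceptors, of 4 WT mice of the C57BL6/J strain (females F1, F2 and F3 and the male M1) and 3 LC3b-/- mice (females F1 and F3 and the male M), each giving 1 library. LC3b, encoded by Map1lc3b, is a ubiquitin-like protein that is joined to the membranes of autophagosomes and of phagosomes, and the study asked how its loss alters gene expression in RPE. All mice were labelled 24 months old. The LC3b-/- strain was B6;129P2-Map1lc3btm1Mrab/J, in which the gene is targeted in every tissue, and strain background and genotype cannot be told apart. RPE was released with hyaluronidase and trypsin after cornea, ciliary body, lens and neural retina had been taken away. The mouse names carry a further group number that is never the same in both genotypes, and its effect and that of genotype cannot be told apart.

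Interferons are secreted proteins that cells make on sensing viral nucleic acid, DNA in the cytosol or other danger. Type I and type III interferons signal through JAK1 and TYK2 to a complex that includes STAT2 and IRF9 and binds the interferon-stimulated response element (ISRE), whereas interferon gamma signals through JAK1 and JAK2 to factors that bind the gamma-activated site (GAS). The genes they induce encode sensors of viral nucleic acid, enzymes that block viral RNA and protein synthesis, membrane proteins that stop viral entry, and the transcription factors of the pathway itself, and RPE cells are known to respond to interferons.

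Map1lc3b, the targeted gene, had 4444, 2832, 2778 and 2865 counts in WT (in the order F1, F2, F3, M1) against 168, 332 and 229 counts in LC3b-/- (in the order F1, F3, M). Every LC3b-/- library was far below every WT library, as the labels say (log2 fold change -3.98, SE 0.15, adjusted p = 0.000186, edgeR with Benjamini-Hochberg adjustment). The libraries held 24495952 to 35616134 counts each. RPE markers (11 genes) summed to 30074 to 47297 CPM (counts per 1000000 counts of the library, after TMM scaling) in WT and 13372 to 28163 CPM in LC3b-/-, with 10 of 11 lower in LC3b-/-. Markers of the ocular surface epithelium (7 keratins, 7 of 7 higher in LC3b-/-) summed to 830, 598, 9.21 and 2402 CPM in WT and to 22312, 5632 and 3258 CPM in LC3b-/-, in the same order of libraries. Endothelial markers (7 of 7 higher) summed to 362 to 1124 CPM in WT and 1278 to 1535 CPM in LC3b-/-, and fibroblast markers (6 of 6 higher) to 328 to 1371 CPM and 836 to 1836 CPM. Macrophage and microglia markers (11 genes, 5 higher and 6 lower) spanned 396 to 580 CPM in WT and 294 to 545 CPM in LC3b-/-. Csf1r, the most abundant macrophage marker, was at 239, 208, 301 and 317 CPM in WT and 93.7, 140 and 260 CPM in LC3b-/-. Cd68 was at 19.8, 20.2, 10.7 and 29.3 CPM in WT and 29.4, 40.6 and 52.8 CPM in LC3b-/-. The sum is weighted to Csf1r, and whether macrophage content differed was not tested. T and NK cell markers (9 genes, 7 higher) spanned 3.11 to 12.4 CPM and 5.02 to 14 CPM. Markers of plasmacytoid dendritic cells, a major source of type I interferon (3 genes, 1 higher), spanned 1.53 to 4.95 CPM and 1.40 to 1.97 CPM. Photoreceptor markers (9 genes, 9 lower in LC3b-/- on average) summed to 2108, 19840, 8501 and 23.8 CPM in WT and 42.6, 6852 and 2911 CPM in LC3b-/-, in the same order of libraries. No gene of these lists was at 0 in all 7 libraries. The part that these other cell types play in the levels below was not tested, and in bulk RNA fewer cells of a type and less RNA per cell cannot be told apart.

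Of the 44 interferon-stimulated genes, 33 were on average higher in LC3b-/- and 11 lower (75% higher, against 51.2% of all genes tested). No member was called at an adjusted p under 0.05 with a fold change of at least 1.5 by edgeR's quasi-likelihood test, where 40 genes were called over all genes (0.235%). Without adjustment, 13 members had p under 0.05 and were higher in LC3b-/- (29.5%, against 13.5% of all genes tested) and 2 were lower (4.55%, against 10.6%). The median log2 fold change (LC3b-/- over WT) was 0.51 over the members and 0.014 over all genes tested. A difference of at least 1.5-fold was seen in 19 members, each of them higher in LC3b-/-, and 3 members (Ifitm1, Oasl1 and Samd9l) differed by at least 2-fold. The shares of all genes tested that pass these fold thresholds were not counted, so these counts only describe the members. DESeq2's Wald test, at the same thresholds, called 6 members, all higher in LC3b-/- (13.6%, against 6.49% of the genes with an adjusted p): Xaf1, Ifitm1, Oasl1, Ifi35, Dtx3l and Samd9l. Limma's voom called 1 member, Xaf1 (0.73% of all genes tested were called by it).

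In 8 members every LC3b-/- library lay above every WT library (18.2%, against 12% of all genes tested): Xaf1, Ifitm1, Ifi35, Dtx3l, Parp9, Eif2ak2, Trim30a and Stat2. In 2 members, Ifit3 and Ifit3b, the order was the opposite, with no LC3b-/- library as high as any WT library (4.55%, against 10.3%), and in the other 34 the groups overlapped. In an exact permutation test over the 35 ways to draw the groups from 7 libraries the smallest p that can be reached is 0.0286, and Xaf1, Ifitm1, Ifi35, Dtx3l, Parp9, Eif2ak2 and Ifit3b were at that value (two-sided, unadjusted). Together these 10 members were 22.7% of the 44, against 22.3% of all genes tested. With a library left out, the share of members that did not overlap was largest without LC3b-/- M (26 members, 59.1%, against 39.2% of all genes). It was 56.8% (25 members, against 35.8%) without WT F1 and 29.5% (against 25.4%) without WT F3. The members' share was below that of all genes without WT F2 (25%, against 28.6%), WT M1 (22.7%, against 25.3%), LC3b-/- F1 (22.7%, against 26.6%) or LC3b-/- F3 (29.5%, against 30.6%).

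**Figure D1:**
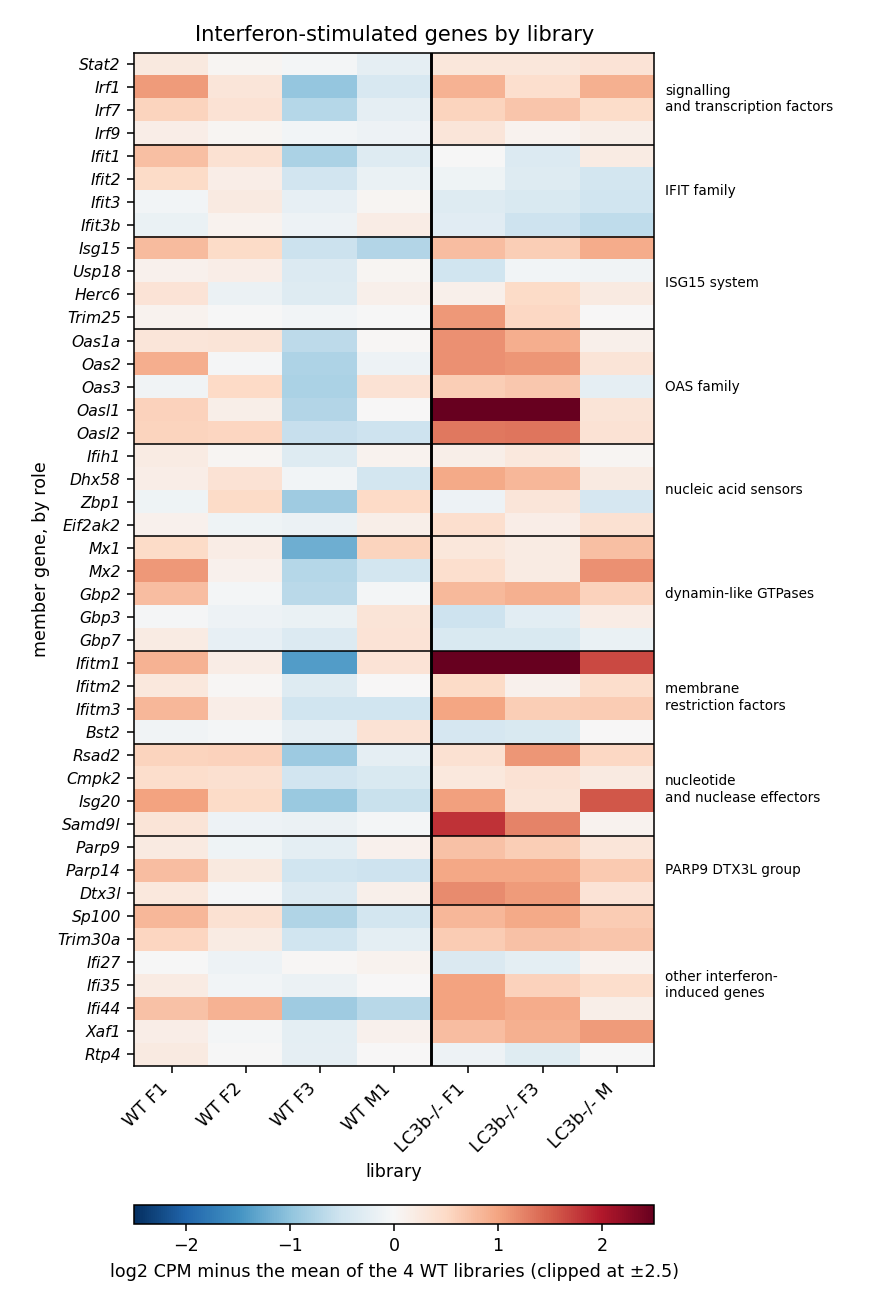
Log2 CPM of each of the 44 interferon-stimulated genes (vertical axis, grouped by role) in each library (horizontal axis), given as the difference from the mean of the 4 WT libraries; red is higher, blue lower, and colours stop at ±2.5. WT F3 was below the WT mean in all but 1 member. Counted on CPM and not on its log2 as drawn, 33 or 34 of 44 members were above the WT mean in each LC3b-/- library.

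The libraries differed within a genotype as well as between genotypes. WT F3 was above the WT mean in 1 of 44 members and was the lowest of all 7 libraries in 30, while WT F1 was above the WT mean in 37. The 3 LC3b-/- libraries were above the WT mean in 33, 34 and 34 members (F1, F3 and M). LC3b-/- F1 and F3 each exceeded every WT library in 24 members and lay below every WT library in 7, whereas LC3b-/- M did so in 13 and 2. The median over members of the deviation from each member's mean, in log2 CPM, was 0.13, -0.029, -0.67 and -0.28 for WT (F1, F2, F3, M1) and 0.33, 0.29 and 0.11 for LC3b-/- (F1, F3, M). WT F3, the lowest library for these genes, also had the lowest sum of ocular surface markers, and LC3b-/- F1, the highest, had the highest sum, but WT M1, the library with the next lowest median, had the highest sum of the WT libraries (2402 CPM). Endothelial markers summed to 1124, 1011, 445 and 362 CPM in WT and 1492, 1535 and 1278 CPM in LC3b-/- in that order. WT F3 and M1 were the lowest in them and in the members, and LC3b-/- F1 and F3 the highest. WT F3 and M1 were also the lowest in fibroblast markers (328 and 433 CPM) and in T and NK cell markers (3.82 and 3.11 CPM). In those 2 lists LC3b-/- F1 and F3 were not the highest. The part of any cell type in the levels of the members was not tested. Without WT F3 the median log2 fold change of the members was 0.29 in place of 0.51. Without WT F3 and LC3b-/- F1 together it was 0.25, with 32 of 44 members higher. This pair, the lowest and the highest library for these genes, was chosen after the data were seen. A smaller median follows from that choice.

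**Figure D2:**
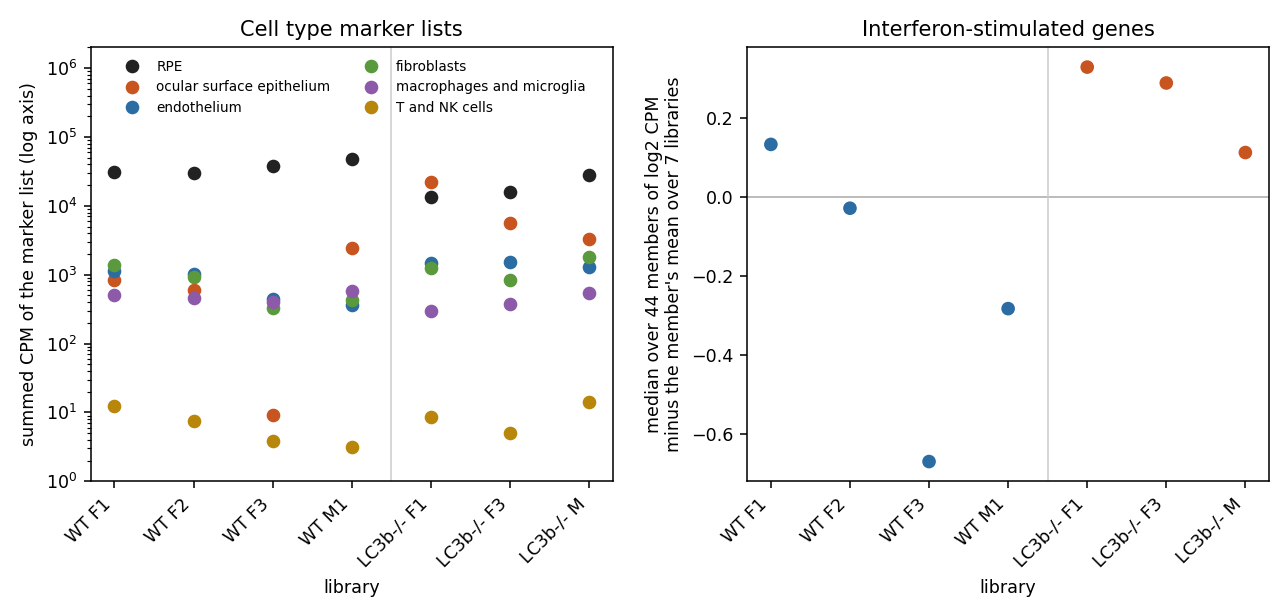
Left, summed CPM of 6 cell type marker lists in each library on a log axis; right, the median over the 44 members of log2 CPM minus each member's mean over the 7 libraries, with WT in blue and LC3b-/- in orange. The sum of ocular surface epithelium markers ran from 9.21 CPM in WT F3 to 22312 CPM in LC3b-/- F1, the libraries with the lowest and the highest median of the members.

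Per kilobase of canonical transcript, the mean level over all libraries was highest for Irf1 (118 CPM per kilobase), followed by Ifitm2 (109), Ifitm1 (106), Ifitm3 (97.2), Bst2 (88.7), Ifi27 (82.1) and Ifit3 (62.3). The lowest were Oas2 (0.609), Mx1 (0.477) and Oas3 (0.272 CPM per kilobase). The place of Ifitm1 differed by genotype: in LC3b-/- it was the highest of the 44 (219.6 CPM per kilobase), and in WT it was at 21.1 CPM per kilobase, below Irf1 (98.9), Ifitm2 (97.6), Bst2 (95.6), Ifi27 (86.1), Ifitm3 (78.4), Ifit3 (69.7), Ifit3b (30.5) and Gbp3 (28.9). No test was made between genes.

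The promoter windows of RefSeq, 250 bases before to 50 bases after a gene's start, were given for 34 of the 44 members and were searched on both strands for the ISRE core, here GAAA followed by any 2 bases and GAAA again, where matches may overlap each other. The core was found in 17 of the 34 (50%) and in 1079 of all 27025 genes with a window (3.99%). The GAS letters TTCNNNGAA were found in 9 of the 34 members (26.5%) and in 9.55% of all genes. Of the members with an ISRE core 11 were higher and 6 lower in LC3b-/-, with a median log2 fold change of 0.32, and of those without it 16 were higher and 1 lower, with a median of 0.68. A match is a description of letters and not a bound site. The 8 stretches shown here were chosen because they lie outside annotated exons, with 4 from members of lower and 4 from members of higher mean in LC3b-/-. That of Trim30a, a member of higher mean in LC3b-/-, also lies outside exons and is not shown. It was found at 2 places on its chromosome, as were those of Ifit3 and Ifit3b, which are shown. The 8 stretches run 5′ to 3′ along the strand of the gene and come from the RefSeq promoter table (GRCm38.p6). They were placed on GRCm39 by exact match, with the ISRE core in capitals on either strand. The 4 members with a lower mean in LC3b-/- are Ifit3 (chr19:34560761-34560828, plus strand), Ifit3b (chr19:34585157-34585224, plus strand), Ifit1 (chr19:34618173-34618225, plus strand) and Bst2 (chr8:71990219-71990258, minus strand).
Ifit3: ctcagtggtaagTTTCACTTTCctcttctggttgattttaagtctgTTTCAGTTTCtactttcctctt
Ifit3b: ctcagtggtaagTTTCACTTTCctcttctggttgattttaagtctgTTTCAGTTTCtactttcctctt
Ifit1: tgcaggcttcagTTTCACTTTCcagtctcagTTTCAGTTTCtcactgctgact
Bst2: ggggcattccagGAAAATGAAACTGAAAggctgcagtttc
The 4 members with a higher mean in LC3b-/- are Isg15 (chr4:156285320-156285365, minus strand), Stat2 (chr10:128106133-128106166, plus strand), Oas3 (chr5:120915778-120915811, minus strand) and Rsad2 (chr12:26506550-26506583, minus strand).
Isg15: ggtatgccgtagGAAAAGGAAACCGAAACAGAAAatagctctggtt
Stat2: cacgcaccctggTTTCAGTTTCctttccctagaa
Oas3: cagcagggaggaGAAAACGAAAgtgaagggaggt
Rsad2: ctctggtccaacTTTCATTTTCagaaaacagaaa
The 68 bases shown for Ifit3 and Ifit3b are identical, and each holds the core at 2 positions. Members of both directions of difference carried the core.

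**Figure D3:**
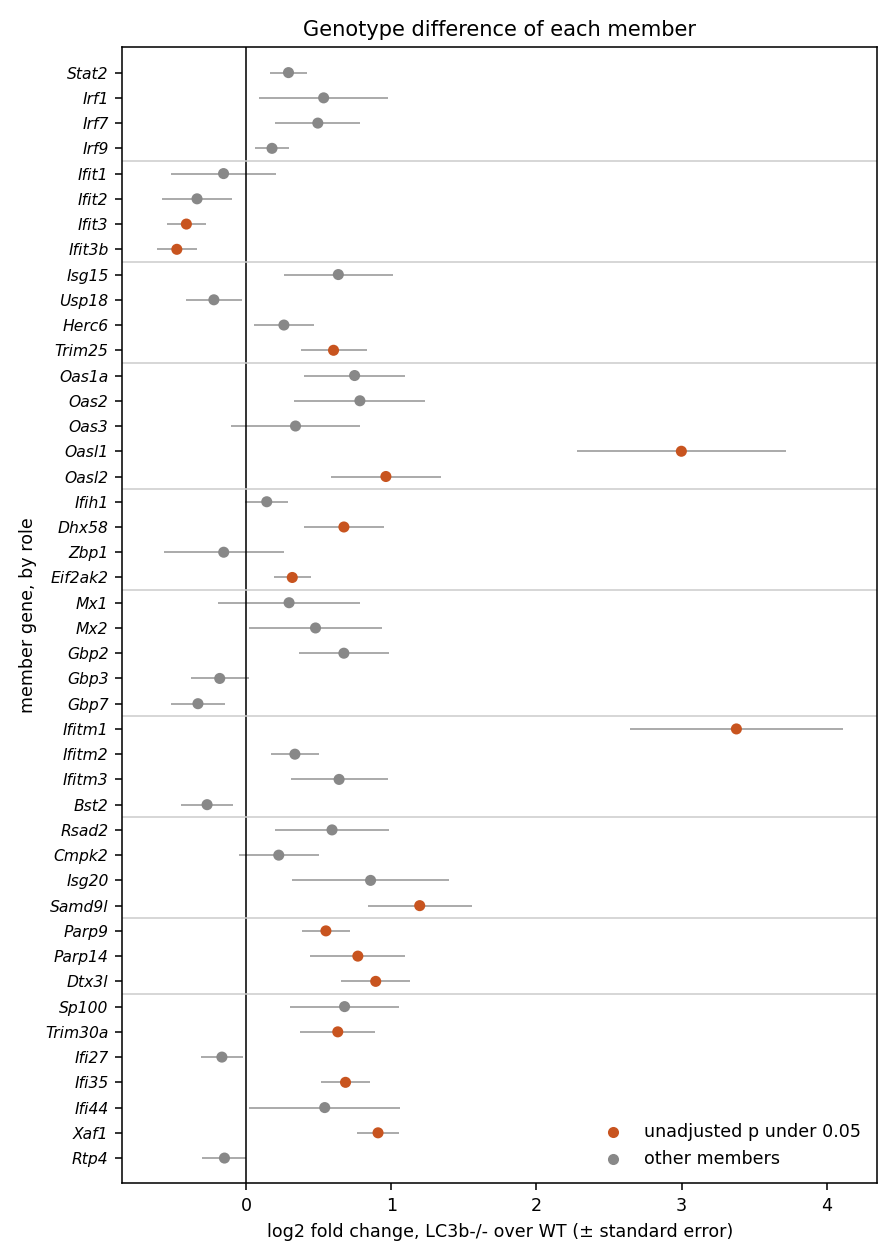
Log2 fold change of each of the 44 members (LC3b-/- over WT) with its standard error from the edgeR fit, grouped by role in the same order as the heat map; orange points have an unadjusted p under 0.05. Ifitm1 (3.38) and Oasl1 (3.00) lie far to the right of the rest, and the 4 IFIT genes lie to the left of 0.

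All 4 signalling and transcription factors had a higher mean in LC3b-/-, with no call. Values are given from here on in the order F1, F2, F3, M1 for WT and F1, F3, M for LC3b-/-, and every adjusted p is the Benjamini-Hochberg value of edgeR's quasi-likelihood test over the 16990 genes, where no other tool is named. Stat2, a subunit of the ISRE-binding complex, was at 55.3, 48.1, 44.9 and 40.0 CPM in WT and 56.7, 56.7 and 59.5 CPM in LC3b-/-. The LC3b-/- libraries were nearly level and all above WT F1, the highest WT library, by a small margin (log2 fold change 0.29, SE 0.13, adjusted p = 0.21). Irf9, the DNA-binding subunit of the same complex, was at 42.3, 39, 35.8 and 34.4 CPM in WT and 46.8, 40.1 and 41.8 CPM in LC3b-/-, and the groups overlapped (log2 fold change 0.18, SE 0.12, adjusted p = 0.38). Irf7, which amplifies type I interferon production, was at 33.1, 28.9, 13.5 and 19.2 CPM in WT and 32.9, 36.3 and 30.9 CPM in LC3b-/-. The WT libraries spread more than the LC3b-/- libraries, with WT F3 and M1 low and WT F1 within the LC3b-/- range (log2 fold change 0.49, SE 0.29, adjusted p = 0.335). Irf1, which is induced by interferon gamma and had the highest mean level per kilobase over all libraries, was at 386, 225, 94.5 and 139 CPM in WT and 334, 246 and 338 CPM in LC3b-/-. The highest library for Irf1 was WT F1, and the difference was within the spread of WT (log2 fold change 0.53, SE 0.45, adjusted p = 0.489).

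The IFIT family, which bind the ends of viral RNA that cells do not make, was the role group in which all 4 members had a lower mean in LC3b-/-. Ifit3 was at 138, 169, 126 and 149 CPM in WT and 115, 111 and 102 CPM in LC3b-/-. All LC3b-/- libraries were below the lowest WT library, WT F3 (log2 fold change -0.41, SE 0.13, adjusted p = 0.135). Ifit3b was at 55.2, 66, 57.1 and 70.8 CPM in WT and 51.1, 43.5 and 39.6 CPM in LC3b-/-, again with every LC3b-/- library below every WT library (log2 fold change -0.48, SE 0.14, adjusted p = 0.117). The canonical transcripts of Ifit3 and Ifit3b are 97.2% identical over 2030 bases, so the split of reads between them is uncertain, and with both summed the log2 fold change was -0.43 (adjusted p = 0.130). Ifit1 and Ifit2 had log2 fold changes of -0.15 and -0.34 with overlapping groups, and for Ifit1 the direction turned when WT F1 was left out (0.13). The promoter stretches of Ifit1, Ifit3 and Ifit3b above each hold the ISRE core at 2 positions, and none of the IFIT genes had a higher mean in LC3b-/-.

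The ISG15 system attaches the ubiquitin-like protein ISG15 to target proteins, and 3 of its 4 members had a higher mean in LC3b-/-. Isg15 itself was at 23.1, 18.6, 9.21 and 8.0 CPM in WT and 22.8, 20.4 and 25.6 CPM in LC3b-/-. WT F3 and M1 were well below the LC3b-/- libraries while WT F1 was within their range (log2 fold change 0.64, SE 0.37, adjusted p = 0.333). Trim25, a ubiquitin ligase that activates the RNA sensor RIG-I, was at 51.3, 48, 46.5 and 48.3 CPM in WT and 103, 69.6 and 48.9 CPM in LC3b-/-. LC3b-/- F1 and F3 were above WT, and LC3b-/- M was within the WT range (log2 fold change 0.60, SE 0.23, adjusted p = 0.172). Herc6, the mouse ligase for ISG15, and Usp18, which removes ISG15 and damps the type I receptor, had log2 fold changes of 0.26 and -0.22, with overlapping groups.

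The OAS family make the oligoadenylates that switch on RNase L, an enzyme that degrades RNA, and all 5 had a higher mean in LC3b-/-. Oasl1, a relative without synthetase activity that holds back translation of Irf7, was at 2.90, 2.11, 1.12 and 1.92 CPM in WT and 23, 23.1 and 2.39 CPM in LC3b-/-. Both LC3b-/- females were about level and far above every other library, while LC3b-/- M lay within the WT range (log2 fold change 3.00, SE 0.72, adjusted p = 0.096). The mean was 2.01 ± 0.728 CPM in WT (SD, n = 4) and 16.2 ± 11.9 CPM in LC3b-/- (SD, n = 3), which is 7.99-fold in the fit. With LC3b-/- M left out the call was made at a log2 fold change of 3.51. That library was the lowest of its group, so leaving it out raises the difference and the call adds no support. Oasl2 was at 25.2, 24.9, 11.5 and 11.8 CPM in WT and 42.5, 43.1 and 21.8 CPM in LC3b-/-. The same 2 females were the highest and LC3b-/- M was below WT F1 and F2 (log2 fold change 0.96, SE 0.38, adjusted p = 0.182). Oas1a, Oas2 and Oas3 were low, at 0.599 to 6.28 CPM in any library, and had log2 fold changes of 0.75, 0.78 and 0.34 with overlapping groups. Oas1a is 97.6% identical to Oas1g over 1861 bases, so its counts are uncertain.

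**Figure D4:**
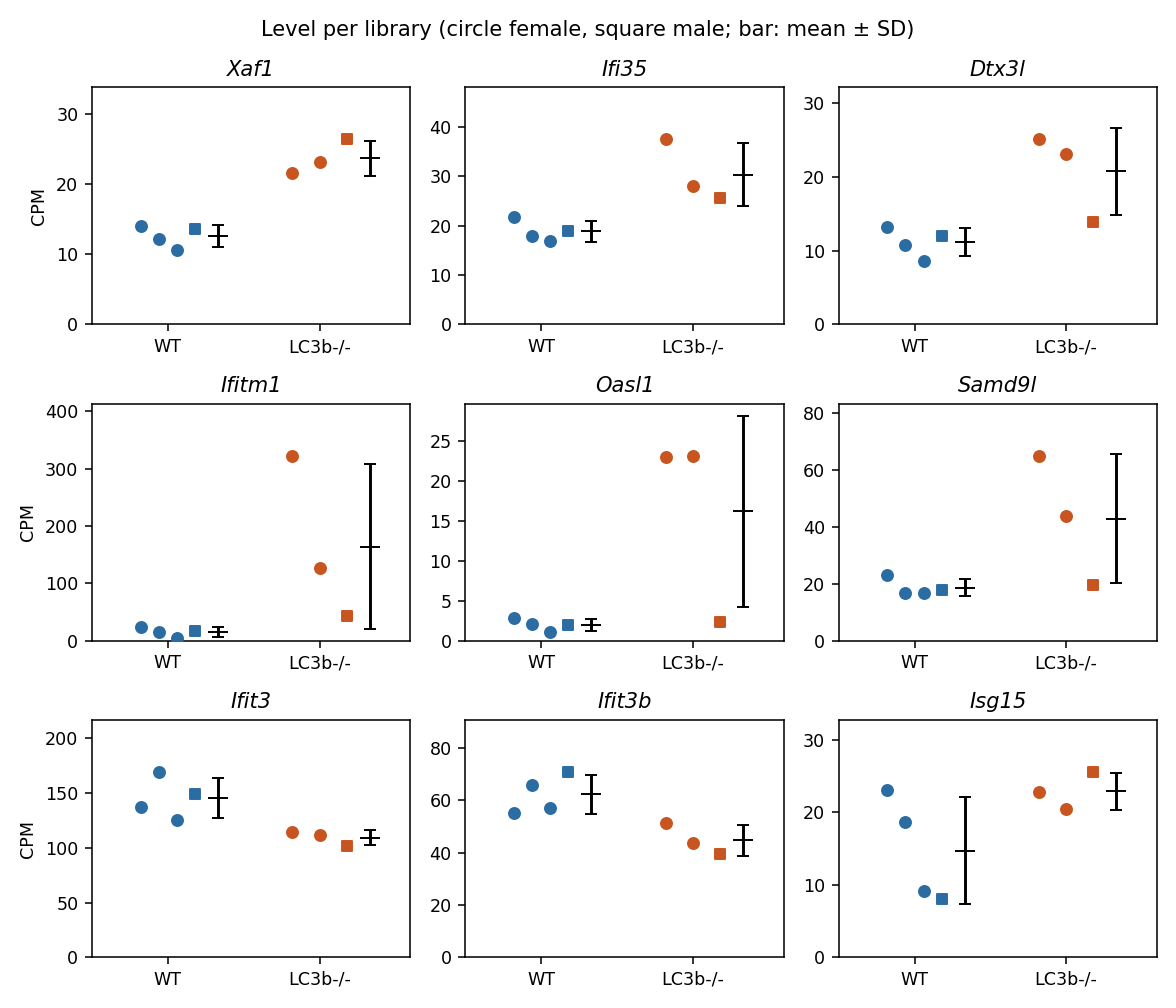
CPM of 9 members in each library, on axes that start at 0, for WT (blue) and LC3b-/- (orange); circles are females, squares are males, and bars give the mean ± SD (n = 4 and n = 3). The groups are apart in Xaf1, Ifi35, Dtx3l, Ifitm1, Ifit3 and Ifit3b and overlap in Oasl1, Samd9l and Isg15.

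Among the nucleic acid sensors, 3 of 4 had a higher mean in LC3b-/-. Eif2ak2, the kinase PKR that stops translation on binding double-stranded RNA, was at 26.9, 23.1, 22.5 and 27.3 CPM in WT and 33.1, 28 and 32.2 CPM in LC3b-/-. The lowest LC3b-/- library, F3, was just above the highest WT library, M1 (log2 fold change 0.32, SE 0.13, adjusted p = 0.182). Dhx58, the helicase LGP2 that tunes RNA sensing, was at 4.74, 5.47, 4.04 and 3.08 CPM in WT and 8.21, 7.55 and 4.99 CPM in LC3b-/-. LC3b-/- F1 and F3 were above WT, and LC3b-/- M was below WT F2 (log2 fold change 0.67, SE 0.28, adjusted p = 0.193). Ifih1, the RNA sensor MDA5, and Zbp1, which binds nucleic acid in the Z form, had log2 fold changes of 0.14 and -0.15, and both groups overlapped.

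Dynamin-like GTPases are large enzymes that assemble on viral particles and on membranes around pathogens. Gbp3, the most abundant of the 5 by CPM, was at 76.9, 72.1, 69.7 and 99 CPM in WT and 54.8, 65.9 and 89.5 CPM in LC3b-/-. WT M1 was the highest and LC3b-/- F1 the lowest, and the groups overlapped (log2 fold change -0.18, SE 0.20, adjusted p = 0.61). Gbp7 also had a lower mean in LC3b-/- (-0.33), whereas Gbp2 (0.67), Mx1 (0.30) and Mx2 (0.48) had higher means, all with overlapping groups. Mx1 and Mx2 share a stretch of 843 bases at 95.3% identity, and their sum had a log2 fold change of 0.46.

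The membrane restriction factors held the largest difference of all 44 members. Ifitm1, which blocks the entry of viruses at the cell surface, was at 24.9, 15.5, 5.17 and 17.4 CPM in WT and 323, 126 and 42.8 CPM in LC3b-/-. Every LC3b-/- library was above the highest WT library, F1, and the LC3b-/- libraries themselves were spread from M, the lowest, to F1, the highest. The mean was 15.7 ± 8.15 CPM in WT (SD, n = 4) and 164 ± 144 CPM in LC3b-/- (SD, n = 3) (log2 fold change 3.38, SE 0.73, adjusted p = 0.0906). The order of the 3 LC3b-/- libraries was that of their ocular surface epithelium markers, and WT F3, the lowest for Ifitm1, was also the lowest for those markers. The WT libraries did not all follow it: WT M1 had the highest WT sum of those markers (2402 CPM) and less Ifitm1 than WT F1 (830 CPM of the markers). Without WT F3 and LC3b-/- F1, its lowest WT and highest LC3b-/- library, the log2 fold change of Ifitm1 was 2.13, a choice that lowers the difference. Its relative Ifitm3, which acts in endosomes, was at 164, 105, 65.9 and 65.5 CPM in WT and 183, 142 and 144 CPM in LC3b-/-. WT F1 lay within the LC3b-/- range, above F3 and M (log2 fold change 0.64, SE 0.33, adjusted p = 0.281). Ifitm2 had a log2 fold change of 0.34, and Bst2, which tethers budding viruses to the cell, one of -0.27, both with overlapping groups. Pseudogenes at least 95% identical to part of Ifitm1 and Ifitm2 held at most 17 counts in all libraries together. Gm64847, a long noncoding RNA 97.6% identical to Ifitm1 over 531 bases, was not among the genes counted. Whether any of its reads were counted under Ifitm1 cannot be told.

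Nucleotide and nuclease effectors limit the building blocks or the integrity of viral RNA, and all 4 had a higher mean in LC3b-/-. Samd9l, which restrains cell growth and protein synthesis, was at 23.3, 16.9, 16.7 and 18 CPM in WT and 65.2, 44 and 19.8 CPM in LC3b-/-. LC3b-/- F1 and F3 were above every WT library and LC3b-/- M was below WT F1 (log2 fold change 1.20, SE 0.36, adjusted p = 0.121). Without LC3b-/- M the call was made at a log2 fold change of 1.54. Leaving out the lowest LC3b-/- library raises the difference, so this call adds no support. Rsad2 (viperin), which makes a nucleotide that ends viral RNA chains, Cmpk2, a mitochondrial nucleotide kinase, and Isg20, an exonuclease, had log2 fold changes of 0.59, 0.23 and 0.86 with overlapping groups.

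The 3 genes of the PARP9 and DTX3L group, which join ADP-ribose and ubiquitin to proteins, each had an unadjusted p under 0.05 and a higher mean in LC3b-/-. Dtx3l was at 13.2, 10.7, 8.65 and 12 CPM in WT and 25.1, 23.1 and 13.9 CPM in LC3b-/-. LC3b-/- M, the lowest of its group, was just above WT F1, the highest of WT (log2 fold change 0.89, SE 0.24, adjusted p = 0.105). Parp9 was at 22.5, 17.8, 16.3 and 20.6 CPM in WT and 31.9, 29.3 and 23.6 CPM in LC3b-/-, with the same order of libraries at the border between the groups (log2 fold change 0.55, SE 0.16, adjusted p = 0.119). Dtx3l and Parp9 overlap on opposite strands, and whether the counting used strand is not given in the sources used here, so part of their reads may be shared. The same holds for Ifi35 and Vat1, Eif2ak2 and Gpatch11, Irf7 and Phrf1, Dhx58 and Dhx58os, and Ifi27 and Ifi27l2a on opposite strands, and Irf9 overlaps Rnf31 on its own strand. Parp14, a mono-ADP-ribosyltransferase, was at 34.1, 23.5, 14 and 13.8 CPM in WT and 39.1, 38.9 and 31.3 CPM in LC3b-/-. WT F1 was above LC3b-/- M, and WT F3 and M1 were the lowest (log2 fold change 0.77, SE 0.33, adjusted p = 0.205).

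Xaf1, a partner of the caspase inhibitor XIAP, had the smallest p of all members. It was at 14.1, 12.2, 10.6 and 13.6 CPM in WT and 21.5, 23.1 and 26.4 CPM in LC3b-/-. The lowest LC3b-/- library was well above the highest WT library, and the means were 12.6 ± 1.55 CPM in WT (SD, n = 4) and 23.7 ± 2.48 CPM in LC3b-/- (SD, n = 3), a 1.88-fold difference (log2 fold change 0.91, SE 0.15, adjusted p = 0.0659). Unlike Ifitm1, Oasl1 and Samd9l, Xaf1 was highest in LC3b-/- M and lowest of its group in LC3b-/- F1. Its log2 fold change stayed between 0.82 and 0.97 over all alternatives. These include leaving out WT F3 and LC3b-/- F1 together, a pair chosen after the data were seen. Both were the lowest of their group for Xaf1, so that setting could hardly move the difference. The adjusted p of Xaf1 was under 0.05 by DESeq2, by voom, with sex as a covariate and without WT F1. Ifi35, which interacts with the factor NMI, was at 21.7, 17.9, 16.8 and 18.9 CPM in WT and 37.5, 28 and 25.5 CPM in LC3b-/-. All 3 LC3b-/- libraries were above WT, with F1 the highest (log2 fold change 0.69, SE 0.17, adjusted p = 0.0967). Trim30a, a regulator of innate signalling, was at 12, 9.41, 5.77 and 6.96 CPM in WT and 12.7, 13.7 and 13.2 CPM in LC3b-/-. The LC3b-/- libraries were nearly level, and WT F1 came close to them (log2 fold change 0.63, SE 0.26, adjusted p = 0.192). The transcript of Trim30a carries a repeat found in many other genes, so its counts are uncertain.

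Ifi27, a mitochondrial protein and the most abundant gene of this last role group, was at 205, 190.0, 212 and 220.5 CPM in WT and 160.0, 174 and 219.7 CPM in LC3b-/-. LC3b-/- M was just below WT M1, the highest library, and LC3b-/- F1 and F3 were the lowest (log2 fold change -0.17, SE 0.14, adjusted p = 0.507). Sp100, a nuclear body protein, Ifi44 and Rtp4 had log2 fold changes of 0.68, 0.54 and -0.15 with overlapping groups. The genotype difference was also compared between females and males by an interaction term, which rests on 1 male per genotype. No member had an adjusted p under 0.05 for it in edgeR (2 had an unadjusted p under 0.05, Oasl1 and Samd9l, adjusted p = 0.998).

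Upstream genes of the same pathway were taken as a list of 38 ligands, receptors, kinases, transcription factors, inducers and inhibitors, and 29 of them had enough counts to be tested. No pathway gene was called by edgeR (0.235% of all genes tested), 26 of 29 had a higher mean in LC3b-/- (51.2% of all genes), and the median log2 fold change was 0.36. An unadjusted p under 0.05 was seen in 7, all higher in LC3b-/- (13.5% of all genes), and in 0 lower (10.6%). Every LC3b-/- library was above every WT library in 7 (12% of all genes) and below in 0 (10.3%). The 7 above were Ifngr1, Ifngr2, Jak1, Jak2, Tyk2, Sting1 and Rigi. Rigi had a log2 fold change of 0.17 (adjusted p = 0.347). DESeq2 called 4 of the 29 with an adjusted p, all higher (6.49% of all genes): Ifngr1, Ifngr2, Jak2 and Sting1.

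Of the 9 interferon ligands none reached the level needed for a test. Ifnb1, interferon beta, had 8, 0, 0 and 1 counts in WT and 2, 4 and 0 counts in LC3b-/-, and Ifng, interferon gamma, had 10, 1, 0 and 3 counts and 1, 6 and 3 counts. The other 7 (Ifna1, Ifna2, Ifna4, Ifnk, Ifne, Ifnl2 and Ifnl3) had 0 counts in all 7 libraries, where a count of 0 allows up to 0.0752 to 0.124 CPM per library. No difference in a ligand was detectable at this depth.

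Both chains of the interferon gamma receptor had higher means in LC3b-/-. Ifngr1, the ligand-binding chain, was at 38, 29.5, 23.1 and 21.7 CPM in WT and 63.8, 47.4 and 45 CPM in LC3b-/-. Ifngr2, the signalling chain, was at 18.2, 13.3, 13.6 and 13.8 CPM in WT and 30.5, 29.6 and 25.1 CPM in LC3b-/-. In both, every LC3b-/- library was above every WT library (log2 fold change 0.89, SE 0.23, adjusted p = 0.0988 for Ifngr1, and log2 fold change 0.95, SE 0.15, adjusted p = 0.0688 for Ifngr2). Of the type I receptor, the chain Ifnar1 was at 37.1, 31, 31.2 and 30.7 CPM in WT and 37.1, 34.1 and 41.6 CPM in LC3b-/-. The chain Ifnar2 was at 36.4, 29.8, 24.5 and 28.5 CPM in WT and 28.6, 31.8 and 40.1 CPM in LC3b-/-. The groups overlapped in both, and their log2 fold changes were 0.21 (adjusted p = 0.332) and 0.17 (adjusted p = 0.586). A test of the difference between the receptors was not made.

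Among the receptor kinases, Jak1 was at 101, 90.5, 83.6 and 83 CPM in WT and 140.1, 106 and 112 CPM in LC3b-/-. Jak2 was at 37.8, 30.7, 26.2 and 25.3 CPM in WT and 53.2, 45.5 and 47 CPM in LC3b-/-. Tyk2 was at 18.4, 15.3, 13.9 and 15.3 CPM in WT and 24.7, 22.5 and 20.2 CPM in LC3b-/-. In each of the 3 kinases every LC3b-/- library was above every WT library (log2 fold change 0.42, SE 0.14, adjusted p = 0.14 for Jak1, log2 fold change 0.69, SE 0.16, adjusted p = 0.0951 for Jak2, and log2 fold change 0.52, SE 0.14, adjusted p = 0.107 for Tyk2).

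Of the 11 genes that lead to interferon production, Sting1, the adaptor for DNA in the cytosol, was at 8.22, 4.39, 4.12 and 5.04 CPM in WT and 19.7, 14 and 9.81 CPM in LC3b-/-. All 3 LC3b-/- libraries were above WT, with F1 the highest (log2 fold change 1.41, SE 0.33, adjusted p = 0.0951). Myd88, the adaptor of most Toll-like receptors, was at 49.5, 29.7, 17.7 and 22 CPM in WT and 68.3, 37.9 and 55.9 CPM in LC3b-/-. WT F1 was above LC3b-/- F3 (log2 fold change 0.86, SE 0.37, adjusted p = 0.205). The 5 inhibitors of the signal all had higher means in LC3b-/-, with log2 fold changes from 0.041 for Pias1 to 0.94 for Socs3, and none had an unadjusted p under 0.05.

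**Figure D5:**
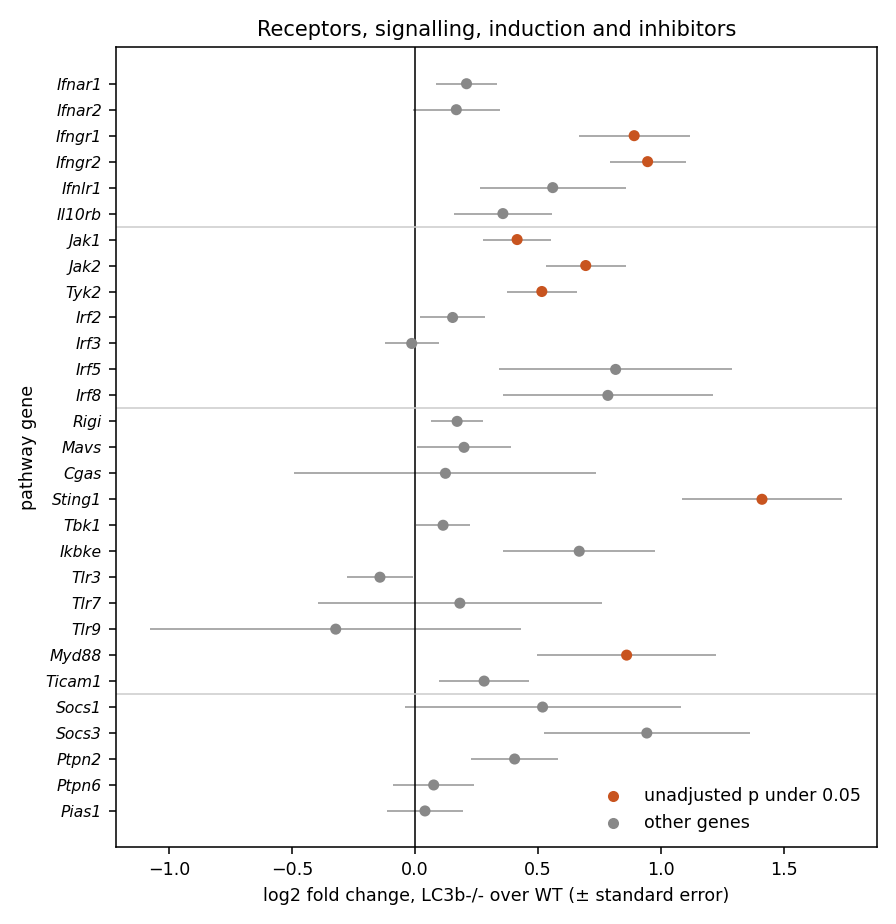
Log2 fold change (LC3b-/- over WT) with its standard error for the 29 pathway genes with enough counts, in the order receptors, kinases and transcription factors, induction of interferon, and inhibitors; orange points have an unadjusted p under 0.05. Sting1 (1.41) is the farthest to the right, and Tlr9 (-0.32), Tlr3 (-0.14) and Irf3 (-0.013) lie to the left of 0.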

How the data were processed

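RNA from 7 mouse RPE samples was sequenced by the authors from stranded libraries of polyadenylated RNA, quantified with salmon against GENCODE transcripts of GRCm39 and summarized by tximeta. Per gene, the authors deposited rounded, unscaled estimated counts, and all 7 columns were used (0 unused). Groups came from the genotype labels.

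Counts were fitted in R 4.3.3 with edgeR 4.0.16: filterByExpr, TMM normalization, and a quasi-likelihood test with genotype as the only term, with p-values adjusted (Benjamini-Hochberg) across 16990 genes; a call needs an adjusted p under 0.05 and a 1.5-fold difference, the study's thresholds. The common dispersion was 0.158. Totals of 24495952 to 35616134 counts per library set the precision, and limits from a count of 0 (3 counts) cover counting error only. The study used DESeq2; here DESeq2 1.42.0 and voom of limma 3.58.1 were alternatives, with other normalizations, filters, samples and covariates. The code was tested on simulated data.

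Group overlap was judged on CPM, and permutation tests, made on log2 CPM (prior count 2), were exact and two-sided. Symbols, coordinates and transcript lengths came from a later GENCODE release on GRCm39. Near-identical copies (at least 95% over 100 bases and 20% of the transcript) were found with BLAST 2.17.0. Figures were drawn with matplotlib 3.10.9 in Python 3.11.15.

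The members, the pathway and marker lists and the motifs were chosen with earlier results of these data known. Values in every library are given for members called by edgeR, the 14 with the smallest p, the member of highest mean CPM in each role group, Irf7, Irf9, Stat2 and Isg15, and for pathway genes with an unadjusted p under 0.05, Ifnar1, Ifnar2 and Ifnb1. Ifng, Rigi, Pias1, Socs3, Tlr9, Tlr3 and Irf3, and the markers Csf1r and Cd68, were added after their values were seen. A gene of the pathway list is not reported here and is left out of its counts.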

Additional observations from a re-analysis of the deposited data

How the results depend on the processing

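Members called were 0 in the edgeR analysis of all 7 libraries, with DESeq2's size factors or library size alone, with other filters on low counts, under the replicate block and without WT F3 and LC3b-/- F1 together; they were 6 by DESeq2, 1 by voom, 1 with sex as a covariate (both Xaf1) and 1 in females only (Oasl1), and 0 to 4 with a library left out (4 without LC3b-/- M, 1 without WT F1). Members with an unadjusted p under 0.05 numbered 15, 24 by voom, 9 under the replicate block, 7 without WT F3 and LC3b-/- F1 together, and 9 to 25 with a library left out (25 without WT F1, 9 without LC3b-/- F1 or F3). The share of all genes with an unadjusted p under 0.05 was not counted under the alternatives. Calls over all genes also changed with the setting and are given below. These counts per setting therefore only describe the members. The median log2 fold change of 0.51 was 0.34 in females only, 0.25 without the pair and 0.29 (without WT F3) to 0.67 with a library left out. Members with a higher mean numbered 32 to 35 throughout. Non-overlapping members numbered 10 (22.3% of all genes), 25 in females only (42.5% of all genes) and 10 to 26 with a library left out (25.3% to 39.2% of all genes). Pathway genes called were 0, 4 by DESeq2, 1 by voom, 1 with sex as a covariate and 0 to 2 with a library left out (2 without WT F1, 1 without LC3b-/- M). Over all genes, calls numbered 40, 1810 by DESeq2, 124 by voom, 78 without a filter, 197 with sex as a covariate, 96 in females only, 0 under the replicate block, 1 without the pair and 11 to 485 with a library left out. An adjusted p under 0.05 whatever the fold, or with at least 2-fold, gave 0 members in the edgeR analysis.

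Of 757 member values under alternatives 732 kept direction and side of the threshold, 14 passed it and 11 turned direction, in 5 members. Ifit1 was 0.058 by voom and -0.38 to 0.13 with a library left out. Zbp1 was 0.21 by voom, 0.17 in females only, 0.60 under the replicate block and -0.41 to 0.014 with a library left out. Mx2 was -0.024 in females only, Mx1 -0.0033 to 0.47 with a library left out, and Oas3 -0.0088 without the pair. The cause was not tested. The replicate block used the codes F1 and F3 shared by the groups; same-coded samples correlated at 0.15 and 0.24 in their deviations, and with 2 pairs these share only a code. The pair of libraries left out together, the 20% rule for copies and the sex interaction were chosen after seeing the data.

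With 4 and 3 mice and a biological coefficient of variation of 0.398, standard errors were widest for Ifitm1 (0.73) and Oasl1 (0.72), whose LC3b-/- libraries spread most relative to their mean.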
